A study of Mus musculus with 2 samples.

Results

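SAP (gene Sh2d1a) and 7 receptors of the SLAM family, namely Slamf1, Slamf6, Ly9, Cd84, Cd48, Slamf7 and Slamf9, were examined in T helper 2 (Th2) cultures from Ecm1 knockout and wild-type mice. The members were taken as every probe set whose single gene symbol in the platform annotation is one of these 8 genes. That gave 13 probe sets of the 45101 on the array, and 8 of the 18193 genes named by a probe set with 1 symbol. A gene was called measured where neither of its signals fell under the floor, the median signal of its array (65.5 in the knockout, 69.2 in wild type), and all 8 genes were measured.

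The SLAM receptors are cell surface proteins of the immunoglobulin superfamily that let blood cells recognise each other. Most bind another copy of themselves on the next cell, whereas Cd48 has no tail of its own, being held by a lipid anchor, and is a ligand for Cd2 and Cd244. The tails of most other members carry tyrosine motifs that bind SAP, a small adaptor made of little more than an SH2 domain. SAP brings the kinase Fyn to the receptor and keeps inhibitory phosphatases away from it. In CD4 T cells this route supports IL-4 production and the long contacts with B cells that germinal centres need, and loss of SAP in humans causes X-linked lymphoproliferative disease.

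The series held 2 Affymetrix mouse arrays, 1 for Ecm1 knockout and 1 for wild type (WT). The labels give both mice as C57BL/6 females of 6 weeks, and the knockout lacks Ecm1, a secreted glycoprotein of the extracellular matrix. Spleen cells were separated magnetically with an anti-CD4 antibody and cultured for 4 days on plates coated with 3 µg/ml of anti-CD3, in the presence of 2 µg/ml of soluble anti-CD28. The Th2 conditions were IL-4 at 10 ng/ml, where the label's unit is garbled, and antibodies against IFN-γ and IL-12 at 10 µg/ml each. The comparison addresses which transcripts differ when Th2 cells lack Ecm1. The sources used here do not give how Ecm1 was disrupted or how many animals lie behind an array.

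With 1 array per group there was no test, SD or p-value between the groups, and every difference describes these 2 arrays. Differences are log2 signals, knockout minus wild type, centred on the median over 20834 probe sets, which was -0.10 before centring. Where a gene has several probe sets, its value is that of the brightest. From the 2 brightest probe sets of 4657 genes, the technical SD of a single probe set was 0.36 on the log2 scale. It was 0.28 in the highest and 0.42 in the lowest tertile of signal. It leaves out animal, culture and array error. The probe set of Ecm1 read 29114.7 in wild type and 19.3, below the floor, in the knockout.

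Some values went against the labels. The sample descriptions name liver where titles and source names give Th2 cells, and of 9 hepatocyte markers on the array 8, Alb among them, were below the floor on both. The T cell markers Cd3e (3382.8 in the knockout against 6210.6 in wild type) and Cd4 (932.2 and 3022.3) were above it on both. The Y-linked Eif2s3y gave a signal of 2214.4 in the knockout and of 25.0, under the floor, in wild type, although both mice are labelled female. Its other probe set was below the floor on both arrays (16.3 in the knockout and 3.1 in wild type). Xist, which coats the inactive X, was above the floor on both arrays on its 3 probe sets. These read 2203.3, 937.0 and 8715.3 in the knockout, or 38.7%, 48.0% and 44.2% of the wild-type signal. These sex-linked transcripts were chosen after their values were seen.

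SAP was lower and Slamf9 higher on the knockout array by more than 2-fold, and the other 6 genes lay within 2-fold. Slamf7 was just short of it, Cd48 was above 0, Cd84 near 0 and Ly9 below 0, and Slamf1 and Slamf6 had probe sets on both sides. Of the 8 members 1 was at least 2-fold lower, where 4.45% of the 10144 measured genes were, and 1 was at least 2-fold higher, where 7.15% were. Among all those genes 61.6% of the 2-fold differences were higher in the knockout after centring and 49.0% without it. The median of the 8 members was 0.33, against 0.04 for all measured genes. Without SAP, the 7 receptors had a median of 0.50, with 5 above 0 and 2 below by their brightest probe set. In Slamf1, Slamf6 and Cd84 another probe set had the opposite sign. The family thus had members on both sides of 0, and a share past 2-fold in either direction rests on 1 gene each.

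**Figure D1:**
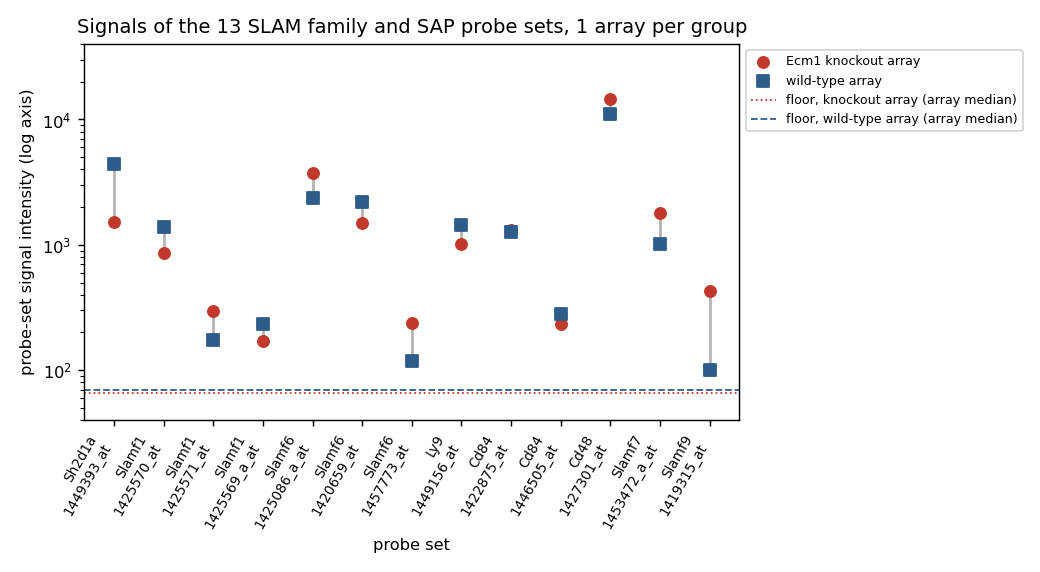
Signal intensity (log axis) of each of the 13 probe sets on the knockout array (circles) and the wild-type array (squares), with a line joining the pair and the floors of 65.5 and 69.2 as dotted and dashed lines. All 26 points lie above the floors, and the widest gaps are those of Sh2d1a, higher in wild type, and Slamf9, higher in the knockout.

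SAP itself had the lowest value of the 8 genes. Its single probe set, 1449393_at, read 1512.7 in the knockout against 4387.8 in wild type, so the knockout signal was 34.5% of wild type as deposited. After centring the difference was -1.43, or 2.70-fold lower. Both signals were well above the floor, at 23.1 times the floor in the knockout and 63.4 times in wild type. Of 10144 measured genes, 132 (1.30%) were as low or lower. The difference was between -1.54 and -1.42 under the 8 processing alternatives that gave a value, past 2-fold in each. With a single bright probe set, using no floor, averaging, or leaving out _x_at and _s_at probe sets could not change it.

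Sh2d1a lies on chromosome X, the chromosome that Xist coats. The 303 measured genes of chromosome X had a median of 0.08, and 11 of them (3.63%) were at least 2-fold lower, against 4.45% of all measured genes. Sh2d1a was 1 of 3 genes there at -1.43 or below. The part of the sex-linked difference in the SAP value was not tested.

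T cell markers were lower on the knockout array as well. All 13 T cell markers that were measured lay below 0, 6 by 2-fold or more, with a median of -0.98 and a range from -2.64 (Trat1) to -0.52 (Cd3d). Trat1, Cd4 (-1.59) and Cd6 (-1.47) were as low as SAP or lower, and Cd5 was next at -1.41. The summed signal of the list was 69350.6 in the knockout against 134395.4 in wild type, or 51.6%. SAP lay inside the range of these markers. In cells taken in bulk, fewer T cells and less RNA per T cell cannot be told apart. SAP is also made by natural killer and CD8 T cells, and most of their markers had lower signals on the knockout array. Of 9 measured CD8 T cell markers 6 were at least 2-fold lower and 3 neither, with 8 below 0 and Eomes at 0.35 (median -1.19, summed signal 10537.3 against 33623.2). Of 4 measured natural killer markers 3 were (median -1.71, summed signal 9463.1 against 31401.9), and Ncr1, which defines those cells, was below the floor on both arrays. All 4 measured natural killer markers, Klrd1, Gzma, Prf1 and Nkg7, are also on the CD8 T cell list, so the lists are not separate results. A further 3 that are not on it, Klrk1, Txk and Klre1, were above the floor in wild type only. Their differences are bounds, at -1.37, -1.77 and -0.11 or lower. Gzma makes up most of both sums, and the part of natural killer and CD8 T cells in the SAP value was not tested.

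Slamf1, the founding receptor of the family and a self-ligand that recruits SAP, had probe sets of opposite direction. The brightest, 1425570_at, read 855.0 in the knockout against 1389.8 in wild type, a difference of -0.60. 1425569_a_at read 170.8 and 232.0 (-0.34), and 1425571_at read 299.1 and 174.3, which is 0.88 in the other direction. The span of 1.48 runs over all its probe sets, dim ones included, whereas the technical SD of 0.36 is that of a single probe set. With the log2 signals of its probe sets averaged, Slamf1 was at -0.018. The direction of Slamf1 thus depends on the probe set.

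Slamf6, known as Ly108, is a self-ligand of T, B and natural killer cells whose tail binds SAP. Its probe sets disagreed in the same way. The brightest, 1425086_a_at, read 3728.0 in the knockout against 2362.8 in wild type (0.76). 1420659_at read 1483.6 and 2198.7 (-0.46), and 1457773_at read 239.2 and 118.9 (1.11, the single receptor probe set besides that of Slamf9 past 2-fold). The span was 1.58. Such disagreement was common on these arrays, since the 2 brightest probe sets had opposite signs in 1212 of 4657 genes (26.0%). Which transcript forms of Slamf1 or Slamf6 each probe set reads is not stated in the annotation, so whether the forms differ was not tested.

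Ly9 and Cd84, also self-ligands that bind SAP, differed little between the arrays. Ly9 read 1006.1 in the knockout against 1447.1 in wild type on its single probe set (-0.42). Cd84 read 1314.1 and 1266.1 on its brighter probe set (0.16) and 234.8 and 282.3 on the other (-0.16). Both Cd84 values are smaller than the technical SD, and with the log2 signals averaged the gene was at -0.0031. Ly9 differed by little more than that SD, which is taken over all signals. Its 2 signals lie on either side of 1183.1, the lower limit of the highest tertile, where the SD was 0.28. Platelets, mast cells and granulocytes can also carry Cd84, and few of their markers were measured. These were Pf4 (3.32) and Itga2b (-0.32) of 6 platelet markers on the array, Cpa3 (0.56) of 10 for mast cells, basophils and eosinophils, and Mmp8 (1.72) of 8 for neutrophils.

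Cd48, the lipid-anchored ligand found on nearly all lymphocytes and other blood cells, read 14600.4 in the knockout against 11094.5 in wild type. The difference was 0.50, and 2219 of the measured genes (21.9%) were as high or higher. Its partner on mouse T cells, the adhesion receptor Cd2, lay on the other side of 0, with 8099.9 against 14245.6 (-0.71). Cd2 is also on the T cell list. The second partner, Cd244 (Cd244a on the platform), an activating or inhibitory receptor of natural killer and some CD8 T cells, was below the floor on both arrays in its brighter probe set (51.8 and 28.9).

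**Figure D2:**
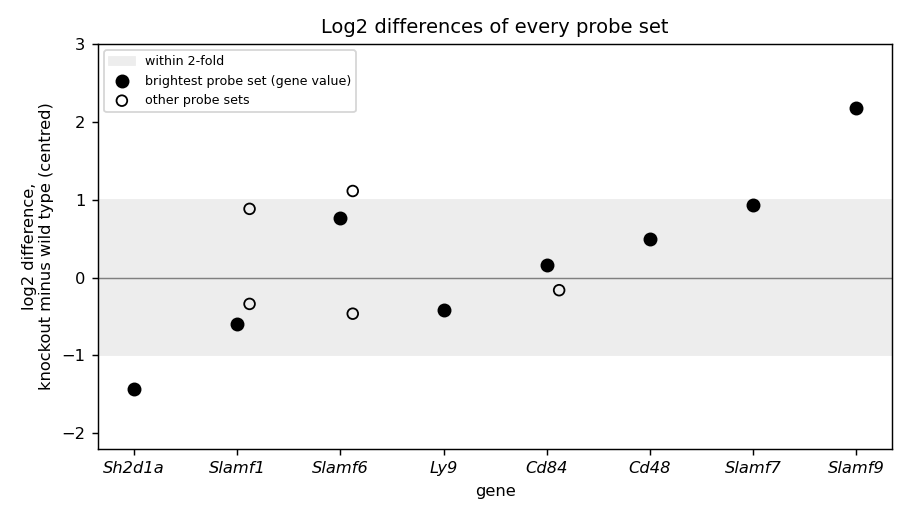
Log2 difference (knockout minus wild type, centred) of each probe set by gene, with the brightest probe set filled, the others open and the range within 2-fold shaded. Slamf1 and Slamf6 have probe sets on both sides of 0, and the gene values run from -1.43 for Sh2d1a to 2.18 for Slamf9.

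Slamf7 and Slamf9 had the highest gene values of the 8, and neither is known as a partner of SAP. Slamf7 (also CRACC or CS1) pairs with the related adaptor EAT-2 and is abundant on plasma cells, natural killer cells and activated macrophages. Slamf9 has a short tail without the SAP-binding motif and is found mainly on monocytes, macrophages and dendritic cells. The bases just before the start of each gene are shown because these are the receptors with the widest differences. They are from RefSeq (GRCm38.p6), 5′ to 3′ on the gene's strand, and end at the base before the annotated start. Capitals mark matches to 4 motifs that were chosen after the sequences were seen.
Slamf7 (chr1:171649000-171649249, minus strand): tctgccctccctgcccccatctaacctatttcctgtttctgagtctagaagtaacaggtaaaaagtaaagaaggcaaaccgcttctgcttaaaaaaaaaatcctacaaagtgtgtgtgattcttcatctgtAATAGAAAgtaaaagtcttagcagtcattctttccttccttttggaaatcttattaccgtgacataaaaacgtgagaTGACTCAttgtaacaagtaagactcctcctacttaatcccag
Slamf9 (chr1:172475110-172475359, plus strand): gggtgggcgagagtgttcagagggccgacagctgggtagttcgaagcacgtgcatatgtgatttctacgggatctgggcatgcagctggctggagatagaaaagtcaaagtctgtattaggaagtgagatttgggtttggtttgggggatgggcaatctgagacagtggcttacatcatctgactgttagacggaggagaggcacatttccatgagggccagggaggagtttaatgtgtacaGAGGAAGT

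The motifs were those of AP-1 (TGANTCA), interferon regulatory factors (AANNGAAA), PU.1-type ETS factors (GAGGAAGT) and GATA factors (AGATAA), each searched on both strands of the 250 bases upstream. The Slamf7 window held TGACTCA from 42 to 36 bases before the start and AATAGAAA from 119 to 112 bases before it. The Slamf9 window held GAGGAAGT in its last 8 bases. No match overlapped another in these windows. Over 32851 RefSeq promoter windows of the same length, 6.75% held the AP-1 letters and 2.44% the ETS letters, while 21.3% held those of interferon regulatory factors and 9.99% those of GATA factors. Of the 6 members with a window in the table, 2 held the AP-1 letters (Slamf7 and Cd84, in the latter beside an overlapping match for interferon regulatory factors). Among the same 6, 3 held the letters of interferon regulatory factors (Slamf7, Cd84 and Cd48), 1 the ETS letters and 0 the GATA letters. A match says what the letters are and not that a factor binds there. The windows of Sh2d1a and Ly9 were not analysed here.

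Slamf7 read 1787.8 in the knockout against 1006.4 in wild type on its single probe set, 177.6% of wild type as deposited. The centred difference was 0.93, or 1.91-fold, just under the threshold, and 871 measured genes (8.59%) were as high or higher. Across 8 alternatives it stayed between 0.83 and 0.93, and the alternatives that could not change SAP could not change it either.

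Slamf9 read 425.5 in the knockout against 100.9 in wild type. The centred difference was 2.18, or 4.53-fold, and 69 of 10144 measured genes (0.68%) were as high or higher. The wild-type signal was 1.46 times the floor, so the size rests on a dim value from the tertile of signal where the technical SD was 0.42. A floor raised to the 70th percentile put the wild-type signal under it and left a lower bound of 0.54. With 50 added to each signal before taking logs, the difference was 1.74.

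Plasma cell, B cell and most macrophage markers had higher signals on the knockout array. The natural killer markers measured on both arrays, of cells that also carry Slamf7, had lower ones, and all of these are shared with the CD8 T cell list. Of 9 measured plasma cell markers 6 were at least 2-fold higher and 3 neither (median 1.53, summed signal 156117.7 in the knockout against 80226.9 in wild type). All 9 lay above 0, and 8 were as high as Slamf7 or higher. Of 12 measured B cell markers 4 were at least 2-fold higher and 8 neither (median 0.85, summed signal 38193.7 against 19653.8), while Pax5 was below the floor on both arrays. Cd79b (10153.2 in the knockout against 4493.9 in wild type) and Ms4a1 (9420.5 against 6290.0) had the highest knockout signals of the B cell list. Those of the plasma cell list were Ighm (37288.9 against 30437.8) and Mzb1 (29480.0 against 10930.8). Of 9 measured markers of macrophages and monocytes, 5 were higher and 1 (Ccr2) lower by 2-fold or more (3 neither, median 1.12, summed signal 14054.2 against 5333.9). A further 6 markers of that list were above the floor in the knockout only, with lower bounds from 0.08 (C1qa) to 1.40 (Msr1). Lyz2 (3.45) and Lyz1 (3.39) were the measured markers of that list as high as Slamf9 or higher. The defining macrophage marker Csf1r read 243.5 and 120.2 and Adgre1 200.5 and 135.5, while Itgam and Marco were below the floor on both arrays. Of 4 measured dendritic cell markers 0 passed 2-fold (median 0.88, summed signal 36544.4 against 21101.9), and Siglech, Xcr1, Zbtb46 and Cd209a were below the floor on both. The cells had been separated with an anti-CD4 antibody before culture, and the arrays do not show how many other cells remained. The part of plasma, B, macrophage, dendritic, natural killer or CD8 T cells in the Slamf7 and Slamf9 values was not tested. Slamf8, another receptor of macrophages, was below the floor on both arrays at 51.2 and 3.8.

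**Figure D3:**
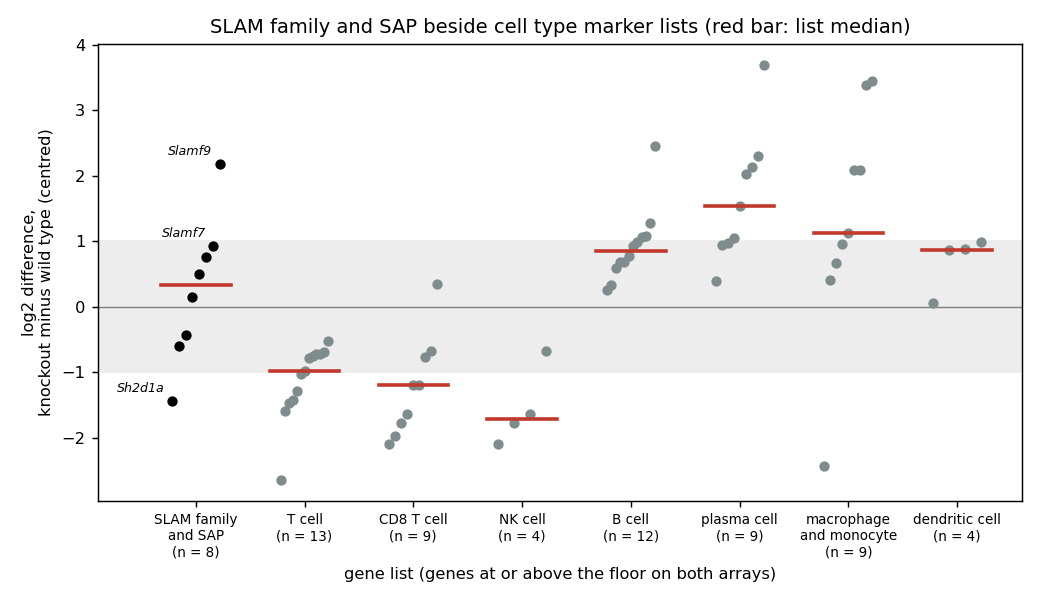
Log2 differences (knockout minus wild type, centred) of the 8 SLAM family and SAP genes and of measured marker genes, by list, with list medians as red bars and the range within 2-fold shaded. T, CD8 T and natural killer markers have medians of -0.98, -1.19 and -1.71, and the natural killer genes shown are all on the CD8 T cell list too. B, plasma, macrophage and dendritic cell markers have medians from 0.85 to 1.53, and the 8 genes span both sides.

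Except for SAP, the genes lie together on mouse chromosome 1. In the RefSeq gene order, Cd244a, Ly9, Slamf7, Cd48, Slamf1, Cd84 and Slamf6 follow each other with 0 other platform genes between them, while Slamf9 and Slamf8 lie further along. The differences did not follow the order. They ran -0.42 for Ly9, 0.93 for Slamf7, 0.50 for Cd48, -0.60 for Slamf1, 0.16 for Cd84 and 0.76 for Slamf6. Between Slamf6 and Slamf8 lie 17 platform genes of other families, of which 9 were measured on both arrays. Of these, 1 was at least 2-fold higher (Pigm, at 1.02, the platform gene just before Slamf9) and 0 at least 2-fold lower, with a median of 0.34 and a range from -0.76 to 1.02. The 570 measured genes of chromosome 1 had a median of 0.06. Ecm1 is on chromosome 3.

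The genes that act with SLAM receptors were followed through a list of 43 names, of which 33 were measured. Of these 3 were lower by 2-fold or more, where 4.45% of all measured genes were, 4 were higher, where 7.15% were, and 26 were neither, with 23 below 0 and a median of -0.31 against 0.04 over all measured genes. Prkcq, the protein kinase C that SAP and Fyn engage on the way to IL-4, read 3238.1 in the knockout against 8999.4 in wild type (-1.37). Fyn, the kinase that SAP recruits, read 1965.5 and 3708.0 (-0.81, with -0.71 in its other probe set). Vav1, an exchange factor, was at -0.10, and the brightest probe set of its relative Vav3 was at 1.18 with its other measured one at -0.21. Of the 6 measured kinases and exchange factors, 5 were thus below 0 and 1 of them past 2-fold.

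The phosphatases that SAP keeps from the receptors lay close to 0. Ptpn6 (SHP-1) read 2593.3 in the knockout against 2734.2 in wild type (0.03), Ptpn11 (SHP-2) was at 0.11, and Inpp5d (SHIP-1) was at -0.32 with 0.45 in its other probe set. Ptprc, the CD45 phosphatase, was at -0.28 on its brightest probe set and -1.55 on another. None of these 4 genes passed 2-fold.

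Among the 12 tail-binding and docking adaptors, 2 were higher by 2-fold or more, 0 lower and 10 neither, where 7.15% of all measured genes were higher and 4.45% lower. The 2 were Blnk, the adaptor of the B cell receptor (7189.3 against 1400.0, 2.46), and Plcg2, the main phospholipase C-γ of B cells (2483.6 against 660.5, 2.01). Blnk is also on the B cell list. The T cell counterparts Lat (-0.75), Lcp2 (-0.81) and Plcg1 (-0.64) lay below 0. Lat is also on the T cell list, so these genes and the markers are not fully separate results. The B cell genes thus lay above 0 and their T cell counterparts below, as did the B and T cell markers. The part of cell makeup was not tested.

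**Figure D4:**
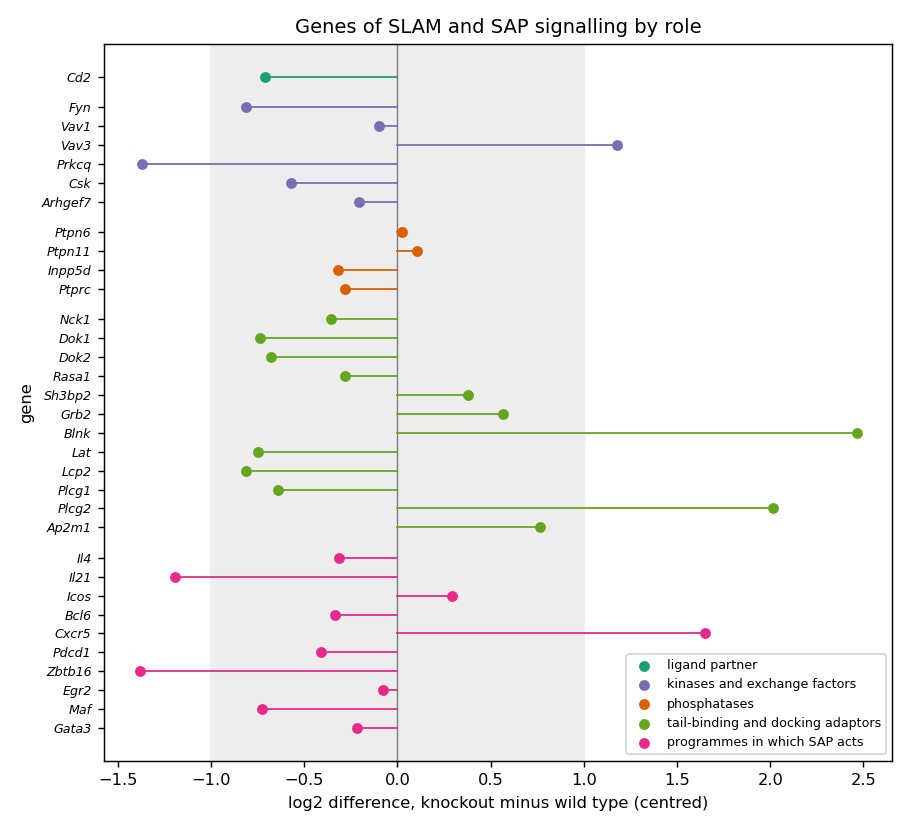
Log2 differences (knockout minus wild type, centred) of the 33 measured genes that act with SLAM receptors and SAP, coloured by role, with the range within 2-fold shaded. Prkcq, Zbtb16 and Il21 lie below -1 and Blnk, Plcg2, Cxcr5 and Vav3 above 1.

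In the programmes in which SAP acts, 2 of 10 measured genes were lower and 1 higher by 2-fold or more, and 7 neither. Of all measured genes 4.45% were lower and 7.15% higher. Il21, the cytokine of follicular helper T cells, read 1446.9 in the knockout against 3555.3 in wild type (-1.19, with -1.65 in its other probe set). Zbtb16 (PLZF), the factor of natural killer T cells, whose development needs SLAM receptors and SAP, read 85.0 and 237.7 (-1.38), the knockout signal lying near the floor of 65.5. Cxcr5, which leads T and B cells into follicles, read 1026.1 and 351.4 (1.65). Il4, the cytokine whose production SAP supports, was at -0.31, Bcl6 at -0.33, Gata3 at -0.21 and Icos at 0.29, all within 2-fold. Maf, an IL-4 and IL-21 factor, was at -0.73 on its brightest probe set and between -1.65 and -1.14 on its 4 other measured probe sets. The part of cell makeup in these values, and in those of the kinases above, was not tested.

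**Figure D5:**
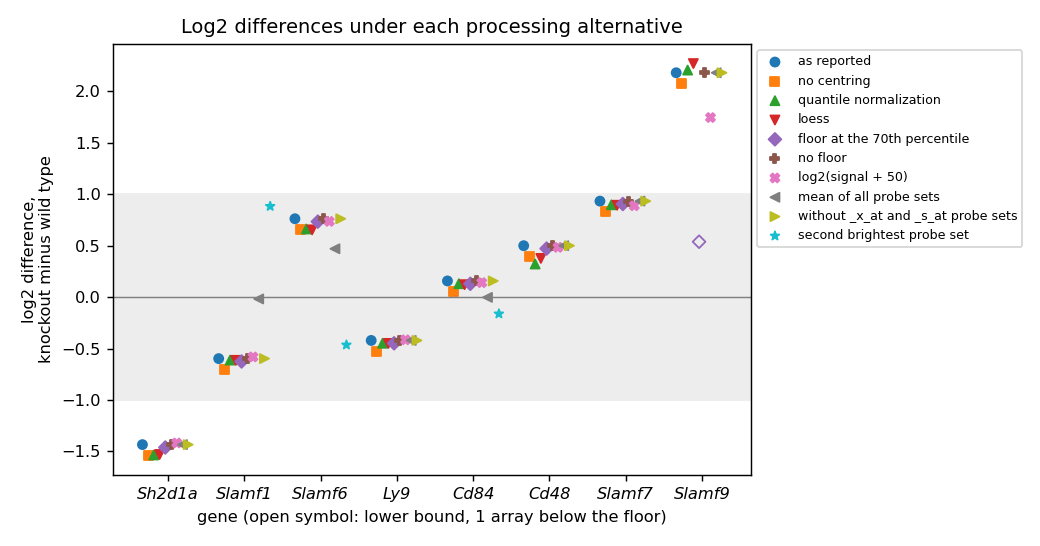
Log2 differences (knockout minus wild type) of the 8 genes under the reported setting and each processing alternative, with an open symbol for a lower bound and the range within 2-fold shaded. Sh2d1a stays below -1 and Slamf7 between 0.83 and 0.93, whereas Slamf1 and Slamf6 change side with the probe set and Slamf9 falls to a bound of 0.54 at the higher floor.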

How the data were processed

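Per the labels' protocols, biotin-labelled cRNA was made from 3 µg of total RNA with the one-cycle Affymetrix assay. The deposited values are linear signal intensities, 1 per probe set and array. How they were summarised is not given in the sources. Trimmed to the central 96% of values, both arrays had a mean of 500.004, whereas their 75th percentiles were 423.4 and 456.2, so the arrays share a global scaling and are not quantile normalised. Whether a share of signal taken up by abundant transcripts lowered the other values was not tested.

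The platform annotation gave 34945 probe sets 1 gene symbol. Signals below the median of their array were treated as below the floor. Log2 differences were centred on their median over the 20834 probe sets with both signals at least at the floor, and a gene took its brightest probe set. With 1 signal under the floor, a gene has a bound only. Analysis used Python 3.11.15 with pandas 2.3.3, numpy 2.4.6 and statsmodels 0.14.6, and the scripts were tested on simulated data. With 1 array per group no test was run, and the number of arrays limits the precision.

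The members and lists were chosen with earlier results of these data known. Named genes are the 8 members, the measured genes of the partner list past 2-fold, its receptors, Fyn, Ptpn6, Ptpn11 and Inpp5d, and, of the marker lists, members of high signal and those below the floor. Other genes named were picked with their values in view. Of the 43 partner names 35 were named by a probe set with 1 symbol, and the others, EAT-2 and Lck among them, were not analysed here. Genes of like pattern were not sought, since 2 arrays give each gene 1 difference. Alternatives were no centring, quantile normalisation, loess with span 0.3, a floor at the 70th percentile or none, an offset of 50, averaged or second brightest probe sets, and leaving out probe sets ending in _x_at or _s_at.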

Additional observations from a re-analysis of the deposited data

How the results depend on the processing

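No paired analysis was possible because there was 1 array per group, and no replicate could be left out. Using no floor, or leaving out probe sets ending in _x_at or _s_at, could not change any member. Averaging could not change a member with a single probe set. Of 67 member differences recomputed under the alternatives, these unchanged ones included, 62 moved by less than the technical SD of 0.36. The exceptions were Slamf1 (0.88 on its second brightest probe set and -0.018 as the mean of its probe sets), Slamf6 (-0.46 on its second brightest) and Slamf9 (a bound of 0.54 at a 70th-percentile floor, and 1.74 with 50 added to the signals). That floor left 7 members measured and 0 of them at least 2-fold higher. Of the members, 3 have a second probe set, and on it 0 were lower and 0 higher by 2-fold or more, and the median was -0.16. The partner list had 0 genes at least 2-fold higher on second brightest probe sets, of 15 whose second one was measured, which leaves out Blnk, Plcg2 and Cxcr5. Over all genes, the counts of 2-fold lower and higher genes were 285 and 416 with the higher floor, 2272 and 2865 with no floor, and 232 and 340 on second brightest probe sets, against 451 and 725 as reported, the numbers of genes counted being different. Dim signals limit Slamf9 and Zbtb16, and the markers Pf4, Mmp8 and Cpa3, where a signal lies near the floor.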
